A study of Homo sapiens with 12 samples.

Results

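The aryl hydrocarbon receptor pathway was followed through 8 named genes in MDA-MB-231, an established human line of triple-negative breast cancer. These were the receptor gene AHR, its partner ARNT, the classical target genes CYP1A1, CYP1B1, CYP1A2, ALDH3A1 and TIPARP, and the coactivator gene NCOA7. CYP1A1 and CYP1B1 were known beforehand to be higher with manassantin and with rotenone than with the vehicle in these same data, so those differences chose the set and are given as descriptions without a test. A probe set assigned to that gene alone was found for 7 of the 8, among 11963 genes measured in this way, and NCOA7 was not analysed here. Cells in full DMEM with serum received DMSO, rotenone, digoxin or manassantin for 24 h, and each of the 4 groups was measured on 3 Affymetrix arrays. Rotenone is an inhibitor of respiratory complex I, digoxin a glycoside of foxglove that inhibits the Na+/K+-ATPase, and manassantin A a plant lignan. The sample titles give digoxin and manassantin, while the series' design text gives digitoxin and Manassantin A, so which of the 2 cardiac glycosides was used is open. Doses and oxygen levels were not stated. Whether the 3 arrays of each group stem from different cultures was not stated either, so the p-values cover variation among these arrays only, and it may be technical.

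The receptor is a ligand-activated transcription factor that waits in the cytosol in a complex with Hsp90 and the cochaperone p23 (PTGES3). After binding a planar aromatic compound it enters the nucleus, pairs with ARNT and binds xenobiotic response elements, whose core letters are GCGTG. Its best known targets are cytochromes P450 of the CYP1 family, which oxidise polycyclic aromatic compounds and oestrogens, together with the feedback genes AHRR and TIPARP. ARNT is also the partner of the hypoxia-inducible factors, whose response element has the core ACGTG or GCGTG, so the element of one complex can read as that of the other.

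The 250 bases before the annotated start of 3 target genes are shown because 2 of these genes were the most changed members with digoxin and the third was among the members that no test called. They are from RefSeq on GRCh38.p14, read 5′ to 3′ on the gene's strand, with GCGTG and its complement CACGC in capitals. The CYP1A1 window is chr15:74725529-74725778 (minus strand), that of TIPARP chr3:156674340-156674589 (plus strand) and that of CYP1A2 chr15:74748595-74748844 (plus strand).
CYP1A1: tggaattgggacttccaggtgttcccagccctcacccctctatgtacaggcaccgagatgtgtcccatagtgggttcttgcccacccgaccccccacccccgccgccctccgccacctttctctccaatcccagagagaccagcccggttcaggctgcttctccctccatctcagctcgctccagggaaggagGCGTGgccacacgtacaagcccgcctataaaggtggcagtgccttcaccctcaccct
TIPARP: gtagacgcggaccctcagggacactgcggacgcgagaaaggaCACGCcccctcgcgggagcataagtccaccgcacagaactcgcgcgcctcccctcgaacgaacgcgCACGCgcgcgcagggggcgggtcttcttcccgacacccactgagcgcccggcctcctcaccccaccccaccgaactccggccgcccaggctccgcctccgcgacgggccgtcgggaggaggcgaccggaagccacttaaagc
CYP1A2: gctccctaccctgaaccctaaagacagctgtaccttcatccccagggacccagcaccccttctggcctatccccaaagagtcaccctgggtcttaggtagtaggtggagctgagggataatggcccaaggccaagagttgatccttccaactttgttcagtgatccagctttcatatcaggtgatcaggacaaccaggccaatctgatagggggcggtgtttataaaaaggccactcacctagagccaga
The CYP1A1 window held 1 copy of GCGTG, 53 to 57 bases before the start, and 1 of ACGTG on the other strand, 44 to 48 bases before it. The TIPARP window before the first of its 3 listed starts held 2 copies of GCGTG, both on the other strand, and the windows before its other starts held 0. The CYP1A2 window held 0 copies of either core. AHR held 0 copies of GCGTG and 2 of ACGTG that overlap on opposite strands, and ARNT held neither. Over 35116 windows of this length, 32.2% held GCGTG and 18.5% held ACGTG, on either strand, so a match to either core is common. NCOA7, which was not measured, held 2 copies of GCGTG and 1 of ACGTG before the first of its listed starts. Before its second start stood 1 copy of GCGTG. The longer motif TNGCGTG, which contains GCGTG, stood in 4.52% of windows and in 0 of the members' windows that were searched. TGACNNNGC, the core of the antioxidant response element, stood in 10.9% of windows and among the members' windows in that of ARNT alone. CYP1A1 and CYP1A2 lie head to head on chromosome 15, with starts 23.3 kb apart, and elements outside these windows were not searched. CYP1B1 (chromosome 2, 38067509 to 38076151) and ALDH3A1 (chromosome 17, 19737984 to 19748298) are named only, as no window of theirs was available to search.

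All values are log2 intensities of the gene's brightest probe set, which cannot be compared between genes. No detection calls were used, so whether a dim transcript was present is not known. Dim refers to a mean over the arrays under 5.75, the 40th percentile of all genes. Differences are between group means on the log2 scale, each with the standard error (SE) from limma over 12 arrays, and a gene is called where its Benjamini-Hochberg adjusted p over the 11963 genes is under 0.05. In the DMSO group the mesenchymal markers VIM, CD44, AXL, CAV1 and MSN read 11.5 to 13.2 and EGFR 9.55, and PGR, CDH1 and FOXA1 read 2.32 to 3.55. ESR1, ERBB2, EPCAM and GATA3 were, like PGR, CDH1 and FOXA1, listed beforehand as low in this line. ESR1 read 6.08 and ERBB2, EPCAM and GATA3 read 7.96 to 8.03, above the dim cut of 5.75, so these were not low. An 18S rRNA control read 10.1 to 10.7 with DMSO, 9.83 to 10.1 with rotenone, 9.92 to 10.2 with digoxin and 9.49 to 10.4 with manassantin. Its mean was lower with each compound than with DMSO, but the ranges overlapped and no test was run.

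**Figure D1:**
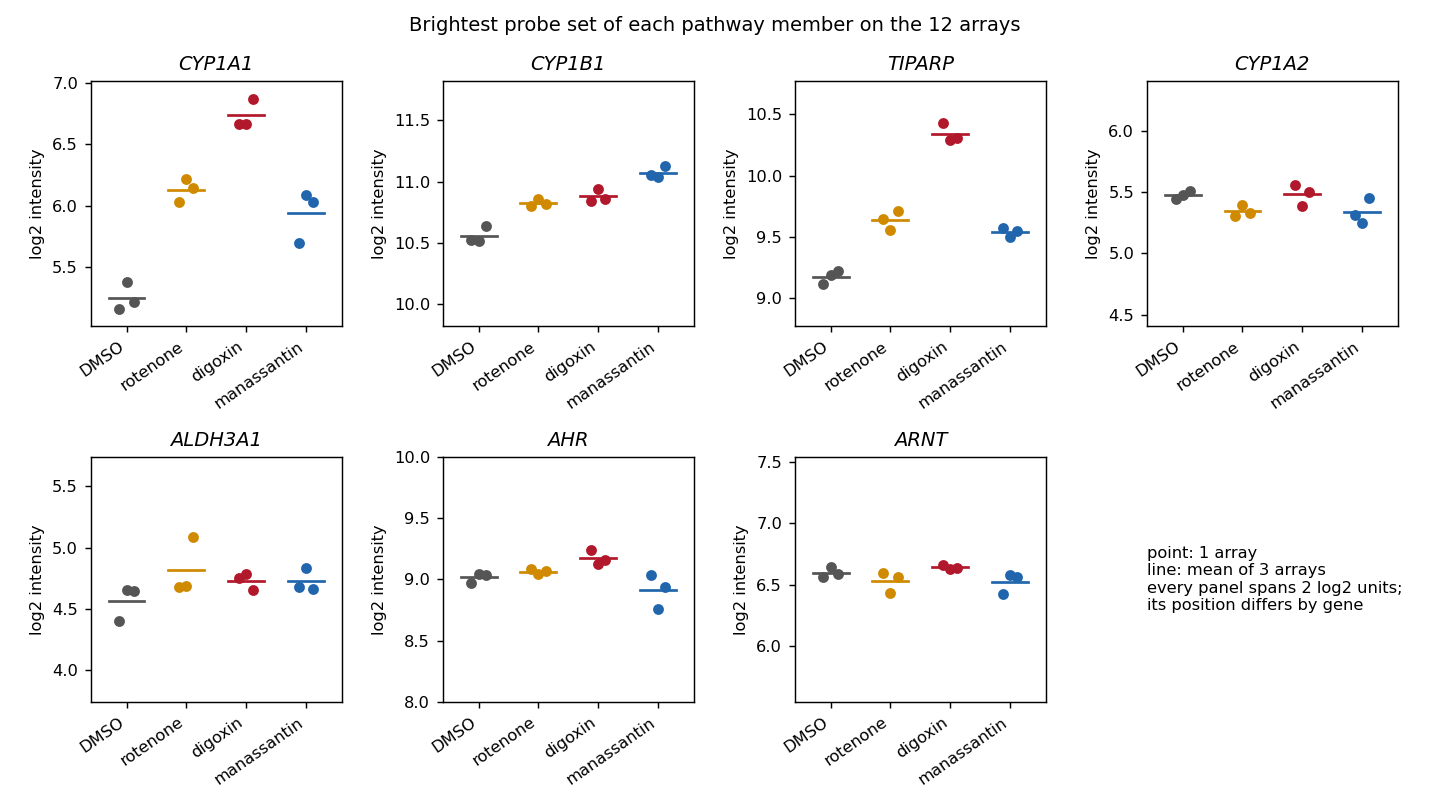
Log2 intensity (y axis) of the brightest probe set of the 7 measured members on each array, by group (x axis), with points for single arrays and a line for the mean of 3. CYP1A1 and TIPARP were highest with digoxin, and CYP1B1 was highest with manassantin. ALDH3A1 ranged from 4.40 to 5.08, its highest value being rotenone replicate 3.

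CYP1A1, the receptor's most studied target, encodes an enzyme that hydroxylates polycyclic aromatic hydrocarbons. Its values were 5.16, 5.38 and 5.21 with DMSO, 6.03, 6.22 and 6.14 with rotenone, 5.70, 6.09 and 6.03 with manassantin and 6.67, 6.67 and 6.87 with digoxin. Every treated array lay above every DMSO array, the digoxin arrays lay above all others, and the rotenone and manassantin arrays overlapped. With digoxin it rose by 1.49 ± 0.10 (SE, n = 3 arrays per group), a 2.80-fold rise (limma adjusted p = 1.44e-07), on DMSO arrays that the choice of members had also used. It was higher with rotenone by 0.88 ± 0.10 and with manassantin by 0.69 ± 0.10, or 1.84-fold and 1.61-fold, as the choice of the set required. Of the 3 manassantin arrays replicate 1 was the lowest, and without it the manassantin difference was 0.81. The direct comparison of manassantin with rotenone gave -0.19 ± 0.10 (adjusted p = 0.297), with a 95% interval of -0.42 to 0.03, an interval that holds 0. That difference was -0.07 without manassantin replicate 1 and -0.27 without manassantin replicate 2.

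TIPARP, which encodes the ADP-ribosyltransferase PARP7 that restrains the receptor in a feedback loop, was not named in the values that chose the set. Its arrays read 9.11, 9.19 and 9.22 with DMSO, 9.57, 9.50 and 9.55 with manassantin, 9.65, 9.55 and 9.71 with rotenone and 10.43, 10.29 and 10.31 with digoxin. The order of the groups was that of CYP1A1, with digoxin apart from the rest, the other compounds overlapping and DMSO below them. TIPARP rose by 1.17 ± 0.057 with digoxin (2.24-fold, adjusted p = 8.42e-09). It was higher by 0.46 ± 0.057 with rotenone and by 0.37 ± 0.057 with manassantin, and manassantin minus rotenone was -0.10 ± 0.057 (adjusted p = 0.344, 95% interval -0.22 to 0.03), or -0.06 without rotenone replicate 3.

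CYP1B1, which encodes the extrahepatic P450 that forms 4-hydroxylated oestrogens, had another order. It read 10.53, 10.52 and 10.64 with DMSO, 10.80, 10.86 and 10.82 with rotenone, 10.85, 10.94 and 10.86 with digoxin and 11.06, 11.04 and 11.13 with manassantin. The manassantin arrays lay above all others, rotenone and digoxin overlapped, and DMSO was lowest. CYP1B1 was higher with manassantin than with DMSO by 0.51 ± 0.051 (1.43-fold) and with rotenone by 0.27 ± 0.051 (1.20-fold). With digoxin it rose by 0.32 ± 0.051 (1.25-fold, adjusted p = 0.000188), again on DMSO arrays that the choice of members had used. Tested directly, CYP1B1 was higher with manassantin than with rotenone by 0.25 ± 0.051 (adjusted p = 0.0133). Without rotenone replicate 1, rotenone replicate 3 or manassantin replicate 3 that difference was 0.23, 0.24 or 0.22 and did not pass, with an adjusted p of 0.0511, 0.0510 or 0.0540. Whether CYP1A1 and CYP1B1 differ from each other in how they respond was not tested.

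**Figure D2:**
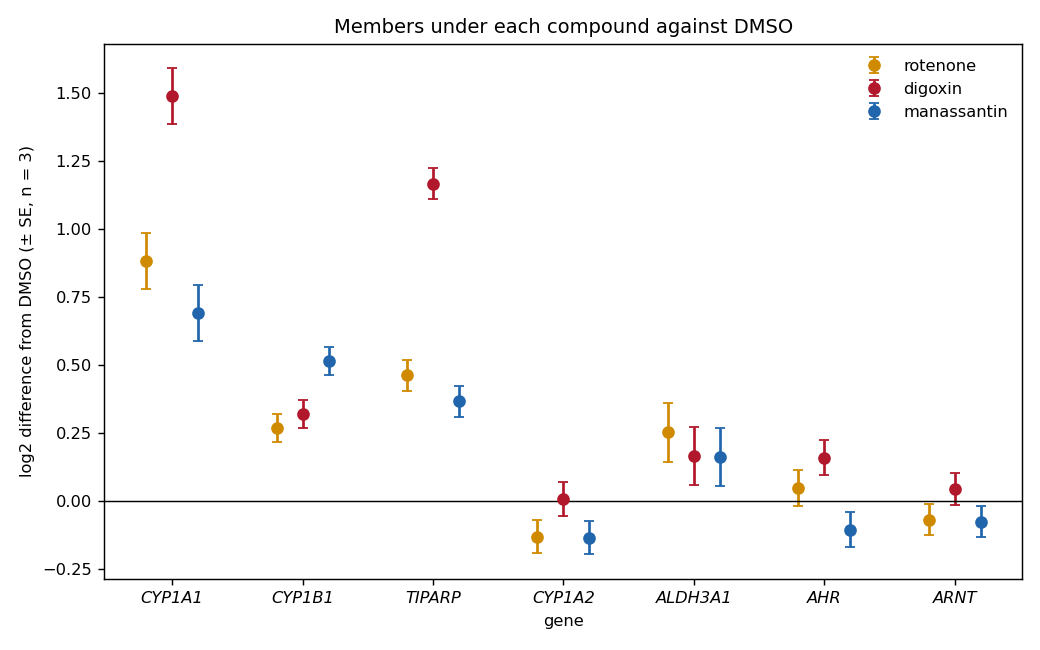
Log2 difference from DMSO (y axis, point with SE, 3 arrays per group) of each measured member (x axis) under the 3 compounds. Digoxin stands highest for CYP1A1 at 1.49 and for TIPARP at 1.17, and manassantin for CYP1B1 at 0.51.

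CYP1B1 had 4 probe sets. The 3 bright ones gave manassantin differences from DMSO of 0.51, 0.46 and 0.47, rotenone differences of 0.27, 0.21 and 0.25 and digoxin differences of 0.32, 0.20 and 0.34. For these 3, manassantin minus rotenone was 0.25, 0.25 and 0.22, and each passed in the fit of every probe set (adjusted p = 0.0189, 0.0364 and 0.0327). The remaining, dim probe set, with values of 4.17 to 4.60, differed. There digoxin stood highest at 0.34 ± 0.058, and rotenone and manassantin at 0.13 and 0.11, with -0.02 between manassantin and rotenone (adjusted p = 0.905).

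CYP1A2, the liver enzyme that demethylates caffeine and the neighbour of CYP1A1, did not follow it. Its brightest probe set, which was dim, read 5.45, 5.48 and 5.51 with DMSO, 5.31, 5.39 and 5.33 with rotenone, 5.56, 5.39 and 5.50 with digoxin and 5.32, 5.25 and 5.45 with manassantin. The digoxin arrays spanned the DMSO ones, and the rotenone arrays lay below them. The difference was 0.01 ± 0.062 with digoxin (adjusted p = 0.939, 95% interval -0.13 to 0.14), -0.13 with rotenone and -0.14 with manassantin. The other CYP1A2 probe set gave 0.24 ± 0.096 with digoxin (adjusted p = 0.0543 over all probe sets), 0.10 with rotenone and -0.07 with manassantin, so the probe sets differ in sign under rotenone.

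ALDH3A1, an aldehyde dehydrogenase gene of the receptor's classical battery, was also dim. It read 4.40, 4.65 and 4.64 with DMSO, 4.68, 4.69 and 5.08 with rotenone, 4.75, 4.78 and 4.65 with digoxin and 4.68, 4.83 and 4.67 with manassantin. The rotenone and manassantin arrays lay just above the DMSO range, and rotenone replicate 3 stood apart. Differences from DMSO were 0.25 ± 0.11 with rotenone, 0.16 ± 0.11 with manassantin and 0.16 ± 0.11 with digoxin (adjusted p = 0.214). Without rotenone replicate 3 the rotenone difference was 0.12. Without DMSO replicate 1, the lowest array, the manassantin and digoxin differences were 0.077 and 0.081.

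AHR itself changed little. It read 8.97, 9.04 and 9.03 with DMSO, 9.08, 9.04 and 9.07 with rotenone, 9.24, 9.13 and 9.16 with digoxin and 9.03, 8.76 and 8.94 with manassantin. The digoxin arrays lay above all others, and rotenone and manassantin each overlapped DMSO. The digoxin difference of 0.16 ± 0.065 missed the threshold (adjusted p = 0.0557), but it passed in 6 of 10 other settings, with an adjusted p from 0.00459 to 0.0832. With 1 array left out it passed in 2 of 12 fits (adjusted p from 0.0183 to 0.163), those without manassantin replicate 1 or 2. Differences were 0.05 ± 0.065 with rotenone and -0.11 ± 0.065 with manassantin. They were 0.02 with rotenone without DMSO replicate 1, and with manassantin -0.17 without manassantin replicate 1 and -0.03 without manassantin replicate 2. The manassantin arrays lay below the rotenone arrays by 0.15 ± 0.065 on average, which did not pass (adjusted p = 0.175), and the difference was -0.08 without manassantin replicate 2.

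ARNT, the receptor's DNA-binding partner, gave answers that depended on the probe set. The brightest read 6.56, 6.64 and 6.59 with DMSO, 6.59, 6.43 and 6.56 with rotenone, 6.66, 6.63 and 6.63 with digoxin and 6.42, 6.58 and 6.56 with manassantin. These ranges overlapped for each compound against DMSO, and the digoxin difference was 0.04 ± 0.058 (adjusted p = 0.546, 95% interval -0.08 to 0.17). Under quantile normalization it was 0.15 and passed (adjusted p = 0.0486). The second probe set read 6.30, 6.11 and 6.05 with DMSO and 6.77, 6.58 and 6.72 with digoxin, without overlap, and rose by 0.54 ± 0.081 (adjusted p = 0.000127 over all probe sets). The third, which was dim, gave -0.04 ± 0.12 (adjusted p = 0.792). With the gene's probe sets averaged, the digoxin difference was 0.18 and passed (adjusted p = 0.0211).

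**Figure D3:**
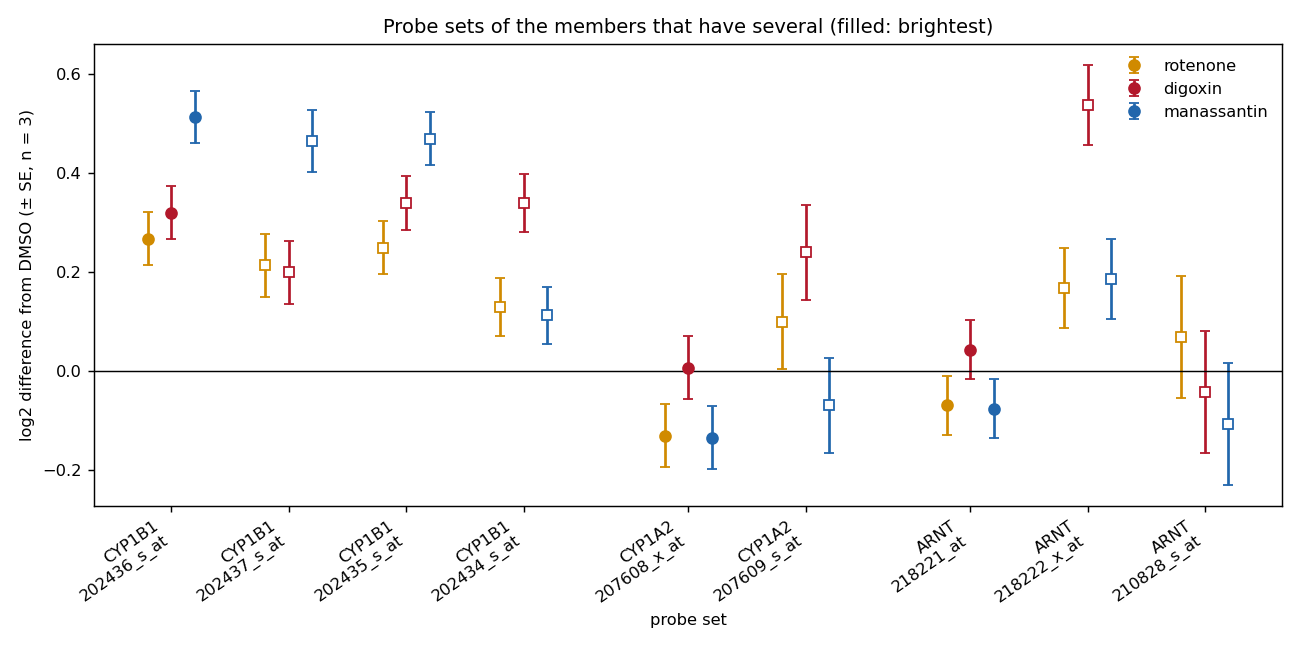
Log2 difference from DMSO (y axis, point with SE, 3 arrays per group) under each compound for every probe set (x axis) of CYP1B1, CYP1A2 and ARNT; filled points mark the brightest probe set. Manassantin is highest on the 3 bright CYP1B1 probe sets, while the ARNT probe sets range from -0.04 to 0.54 with digoxin.

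Counted together, 3 of the 7 measured members were called higher and 0 lower with digoxin, where 54.8% of all genes were called, 28.0% higher and 26.9% lower. The median digoxin difference of the 7 was 0.16, beside 0.07 over all genes. With arrays centred on their medians the median over all genes was 0.15, and 5020 genes were called higher and 2685 lower in place of 3347 and 3214. The digoxin and DMSO arrays did not overlap for 4 of the 7, all higher, beside 61.9% of all genes, 32.8% higher and 29.1% lower. Since so many genes moved with digoxin, nothing particular to the members is read from these counts.

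With manassantin 3 of 7 were called higher and 0 lower, where 0.970% of all genes were called, 0.853% higher and 0.117% lower. Arrays did not overlap for 4 of the 7, all higher, beside 22.4% of all genes, 13.9% higher and 8.45% lower. With rotenone 3 of 7 were called higher and 0 lower, beside 6.94% of all genes, 3.55% higher and 3.39% lower. Arrays did not overlap for 5 of the 7, with 4 higher and CYP1A2 lower, beside 31.2% of all genes, 16.9% higher and 14.3% lower. Since CYP1A1 and CYP1B1 were chosen on the manassantin and rotenone comparisons, nothing is read from those counts, and all 3 comparisons share their DMSO arrays. Between manassantin and rotenone 1 of 7 was called, CYP1B1, beside 8.47% of all genes, 4.69% higher and 3.78% lower. There CYP1B1 was higher and AHR lower without overlap, beside 29.2% of all genes, 16.1% higher and 13.1% lower.

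The 18S control, lower on average with each compound, can be set in the fit as a covariate. With it CYP1A1 stood at 1.47 with digoxin, 0.86 with rotenone and 0.66 with manassantin, TIPARP at 1.18, 0.48 and 0.39, and CYP1B1 at 0.35, 0.31 and 0.57, so the group orders described above held.

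Other genes of the pathway were taken from 5 lists compiled by function, of which 79 genes were measured. With manassantin limma called 0 of the 79, beside 0.970% of all genes. An unadjusted p under 0.05 was found for 11, or 13.9%, beside 15.8% of all genes. Among 18 further receptor targets the median difference was 0.01, the same as over all genes to that precision, and NQO1, the quinone reductase shared with NRF2, stood at 0.19 (adjusted p = 0.308). The largest were those of IL1B (dim), FOSL1 and ALDH1A3, at 0.23, 0.22 and 0.22, named after their values were seen. None of the receptor's measured chaperones was called. HSP90AA1 stood at -0.05, HSP90AB1 at -0.04 and the p23 gene PTGES3 at -0.03, with adjusted p of 0.709, 0.734 and 0.814. ARNT's other partners HIF1A and EPAS1 stood at -0.02 and -0.15, and POR, the reductase that feeds electrons to the P450s, at 0.00141 (adjusted p = 0.896, 0.402 and 0.995).

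With rotenone 3 of the 79 rose and 3 fell, a share of 7.59% called, near the 6.94% over all genes. NEDD9, a scaffold protein of focal adhesions listed as a receptor target, fell by 0.73 ± 0.085 (adjusted p = 0.000467), and the AP-1 gene FOSL1 rose by 0.35 ± 0.057 (adjusted p = 0.00409), the only calls among the 18 targets. NEDD9's other probe set gave -0.37 and did not pass (adjusted p = 0.0710 over all probe sets). The NF-kB subunit gene RELB, whose product can pair with the receptor, rose by 0.31 (adjusted p = 0.0475), and the clock gene BMAL1, a relative of ARNT, by 0.36 (adjusted p = 0.0165), though not on its other probe set (0.19, adjusted p = 0.544). The dim genes CYP2R1, a vitamin D 25-hydroxylase, and TPH1, tryptophan hydroxylase, fell by 0.32 and 0.54 (adjusted p = 0.00918 and 0.0164). HSP90AA1 stood at 0.01, HIF1A at -0.06, EPAS1 at -0.06, NQO1 at 0.06 and POR at -0.05, with adjusted p from 0.606 to 0.959.

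Between manassantin and rotenone 6 of the 79 were called, a share of 7.59% beside 8.47% over all genes, so the lists did not stand above the background there. NEDD9 was higher with manassantin by 0.71 ± 0.085 (adjusted p = 0.000664; 0.22 and not called on its other probe set), CYP2R1 by 0.34, the electron donor gene CYB5A by 0.32 and the kynurenine aminotransferase genes KYAT1 and KYAT3 by 0.31 each. BMAL1 was lower by 0.31 (adjusted p = 0.0323), though it was not called on its other probe set (-0.09, adjusted p = 0.784 over all probe sets). NEDD9 thus fell with rotenone, where CYP1A1 and TIPARP were higher, and stood at -0.02 with manassantin (adjusted p = 0.924).

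With digoxin 26 of the 79 rose and 24 fell, a share of 63.3% called, beside 54.8% of all genes, 28.0% higher and 26.9% lower. Of the 18 targets 7 rose and 3 fell, with a median of 0.14 beside 0.07 over all genes. EREG, the epiregulin gene, rose by 0.93 ± 0.074, the cyclooxygenase gene PTGS2 (dim) by 0.78, HES1 by 0.63 and the amino acid transporter gene SLC7A5 by 0.41. NEDD9 fell by 1.60 ± 0.085, from 8.08 to 6.48, the retinal dehydrogenase gene ALDH1A3 by 0.99 and CDKN1B by 0.38. NQO1 stood at -0.18 on its brightest probe set (adjusted p = 0.101). On another it fell by 0.69 and was called (adjusted p = 5.43e-05 over all probe sets). The remaining NQO1 probe set stood at -0.10 (adjusted p = 0.391). For NEDD9 and HES1 no other probe set was called.

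Of 21 chaperone, cofactor and degradation genes 7 rose and 10 fell with digoxin, beside 28.0% of all genes called higher and 26.9% lower. HSP90AA1 fell by 0.48 ± 0.051 on its brightest and 0.37 to 0.87 on its other probe sets. HSP90AB1 fell by 0.38 ± 0.043 and PTGES3 by 0.45 ± 0.043. Each of these chaperone genes was called (adjusted p = 5.76e-06, 1.05e-05 and 2.58e-06), and nothing particular to them is read from this. Among coactivators NCOA1 rose by 0.27 and CREBBP by 0.63, while NCOA2 fell by 0.96 on its brightest probe set and stood between -0.07 and 0.06 on its other 3. RELB rose by 1.07, KLF6 by 0.78 and MED1, a Mediator subunit gene, by 0.37. RB1 and the export receptor gene XPO1 fell by 0.57 and 0.53. RB1's other probe set stood at -0.02 and was not called (adjusted p = 0.850 over all probe sets).

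Of 12 bHLH-PAS partners, the family to which AHR and ARNT belong, 5 rose and 4 fell with digoxin. Over all genes 28.0% were called higher and 26.9% lower, shares that also apply to the P450 and tryptophan lists below. EPAS1, encoding HIF-2α, rose by 0.71 ± 0.079, the clock genes PER2 and BMAL2 by 1.24 and 0.71, and SIM2 (dim) by 0.54. ARNT2, the paralogue of ARNT, fell by 1.34 ± 0.076 (adjusted p = 2.82e-08), NPAS2 by 0.72, CLOCK by 0.39 and HIF1A by 0.33. CLOCK's other probe set stood at -0.04 and SIM2's at 0.21, and neither was called (adjusted p = 0.615 and 0.183 over all probe sets). Of 17 further P450 and electron donor genes 3 rose and 3 fell. CYP26B1, CYP27A1 and CYB5B rose by 0.40, 0.22 and 0.21, and CYP2R1 (dim), CYB5A and POR fell by 0.99, 0.32 and 0.22. Of 12 tryptophan enzymes, some of which make receptor ligands such as kynurenine, 4 rose and 4 fell. KYNU, HAAO, KYAT1 and KMO were higher by 0.59, 0.36, 0.27 and 0.26. MAOA, TPH1, MAOB and KYAT3 were lower (-0.87, -0.73, -0.56 and -0.48). HAAO, KMO, TPH1 and MAOB were dim. KMO's other probe sets, at 0.17 and 0.18, were not called (adjusted p = 0.270 and 0.156 over all probe sets). For MAOA 2 other probe sets were called the opposite way, at 0.40 and 0.47. The same held for SRC of the cofactor list, at -0.29 on its brightest probe set and 0.37 on another (adjusted p = 0.0213 over all probe sets). Of the 50 called list genes 26 had several probe sets, and for 12 of these no other one was called in the same direction.

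**Figure D4:**
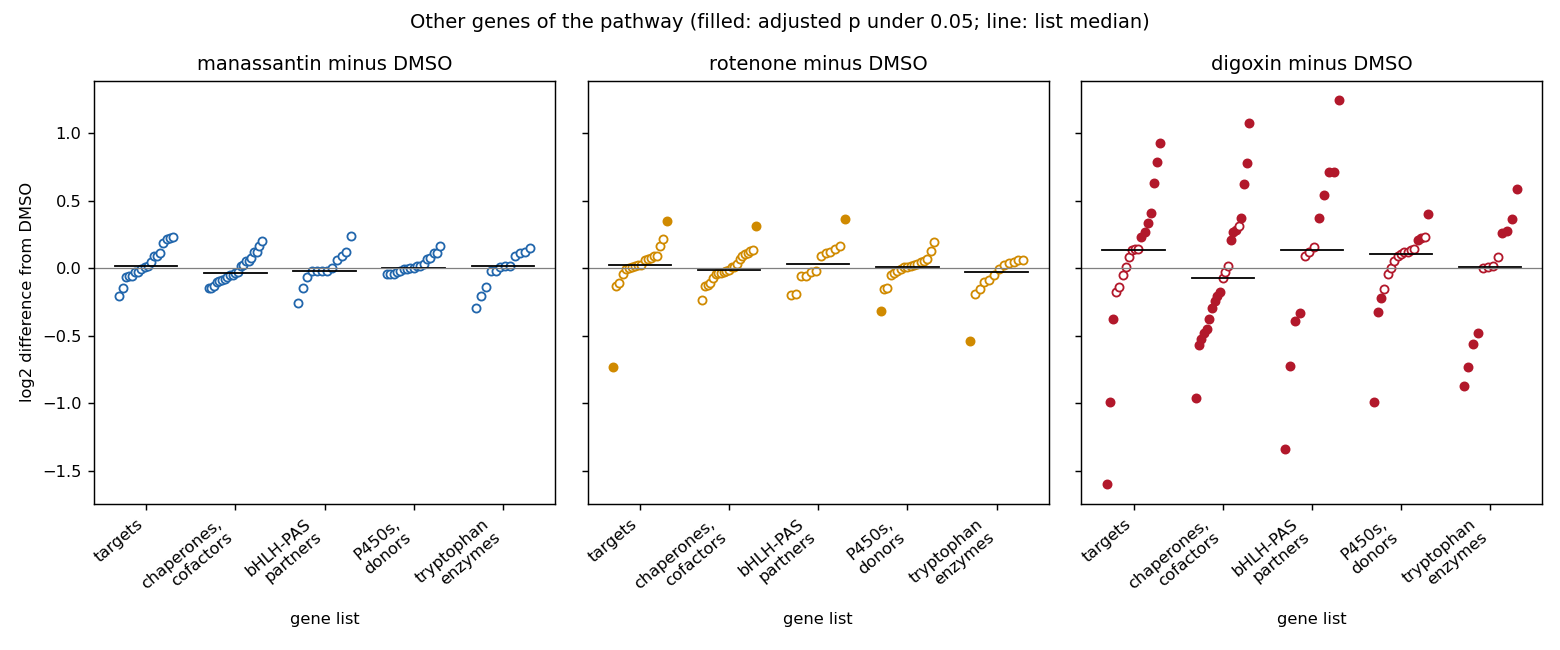
Log2 difference from DMSO (y axis) of the measured genes of the 5 pathway lists (x axis) with manassantin, rotenone and digoxin; 1 point per gene, IDO1 in 2 lists, filled where called, and a line for the list's median. With manassantin 0 of 79 genes are filled, with rotenone 6 and with digoxin 50.

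Across the 12 arrays the genes most like CYP1A1 among 7173 genes that were neither dim nor members were DENND1A, IER3, ATP6V0E1 and PNP, with Pearson r of 0.974, 0.971, 0.966 and 0.965. IER3, an immediate early gene, averaged 11.2 with DMSO, 11.6 with manassantin, 11.8 with rotenone and 12.1 with digoxin. Those most like CYP1B1 were EEF1A2, RGL2, HTRA2 and FAM3A, with r of 0.888, 0.875, 0.874 and 0.868, and EEF1A2 averaged 6.63 with DMSO, 6.79 with rotenone, 6.96 with digoxin and 7.01 with manassantin. Among the members themselves CYP1A1 and TIPARP had r = 0.933, CYP1A1 and CYP1B1 0.548, and CYP1A1 and CYP1A2 0.0212. These values describe 12 arrays that fall into 4 groups and share their scaling, and they carry no test.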

How the data were processed

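MDA-MB-231 RNA was biotin-labelled and hybridized to Affymetrix arrays, per the labels' protocols. The deposited values are probe set summaries read as log2 intensities from their range, 1.65 to 13.8; for the authors' summarisation and normalization, no source used here gave a method, and array medians were 5.88 to 6.00. Of 22277 probe sets, 19064 carried 1 gene symbol in a platform annotation; 62 were controls. Where a gene had several, the brightest on average stood for it. Group differences came from limma 3.58.1 run in R 4.3.3 (lmFit, eBayes, group as the only term, 12 arrays), with Benjamini-Hochberg adjustment over 11963 genes, and the procedure was tested on simulated data. Members, lists, tests and alternatives were chosen with earlier results of these data known. Named list genes were up to 4 called genes in each direction with the largest differences, and a fixed set tied to the receptor. AHRR, NCOA3 and the UGT1A genes had no probe set of 1 symbol and were not analysed here.

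Alternatives included quantile normalization, centring arrays on their medians, averaging probe sets or fitting all of them, and dropping dim genes. Others were a replicate block, array weights, a trended robust prior, a fit on the compared groups alone, an 18S covariate, and leaving out each array. Deviations of same-numbered arrays from their group means correlated at 0.107 to 0.362 for rotenone and manassantin. Each was over 0.1, the criterion for pairing arrays by their title numbers. The p-values printed for that comparison still come from fits without pairing, except where the replicate block is named. The other pairs of groups did not meet the criterion. The number of arrays limits precision. Figures were drawn with matplotlib 3.10.9.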

Additional observations from a re-analysis of the deposited data

How the results depend on the processing

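Over 608 recomputed member differences, no called one changed sign, and 588 stayed the same by threshold or by the replicate spread. A change of sign was not counted for differences that were not called. For example, CYP1A2 with digoxin against DMSO ran from -0.03 to 0.05 with an array left out. With averaged probe sets, which take in the dim one, CYP1B1 stood at 0.39 with manassantin and 0.21 with rotenone against DMSO; with the 18S covariate the manassantin value was 0.57. Members called with manassantin numbered 0 in a fit on those groups alone, 1 with the 18S covariate, and 1 to 3 with an array left out (1 without DMSO replicate 1 or 3, or manassantin replicate 2 or 3). Between manassantin and rotenone, with an array left out, they numbered 0 to 1 and CYP1B1 ranged from 0.22 to 0.26; with averaged probe sets CYP1B1 stood at 0.18 there. The count of called list genes with manassantin was 1 with the replicate block, 3 each with dim genes left out, a trended robust prior or array weights, and 0 to 1 with an array left out (1 without digoxin replicate 2). With rotenone it was 10 with that prior, 10 with array weights, 2 with the 18S covariate, and 3 to 6 with an array left out (3 without DMSO replicate 1 or rotenone replicate 2). The causes were not tested. The replicate block changed no call of a member between manassantin and rotenone, where CYP1B1 had an adjusted p of 0.0143 with it; with the block AHR passed for digoxin against DMSO (adjusted p = 0.0489), where the numbers did not meet the criterion for pairing. CYP1A1, CYP1B1 and TIPARP passed for digoxin in 10 of 10 other settings and with each of 12 arrays left out. CYP1A1 stayed in the fit without dim genes by its mean over all arrays, 6.01, which the treated arrays raised. Its DMSO mean of 5.25 was under the dim cut, so that setting is no separate support for its rise. CYP1A2 and ALDH3A1 were dim, so small changes of theirs may be missed.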
